A study of Saccharomyces cerevisiae with 6 samples.

Results

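The 33 genes described here serve the synthesis of ergosterol, its storage as sterol esters and the control of the pathway. They were chosen by name, as the probe sets whose platform annotation gives 1 of 33 listed symbols. Each of the 33 had 1 probe set, among 5449 named genes and 5900 probe sets in the whole table. By role they were 9 genes of the mevalonate part (early), 3 of squalene synthesis and cyclisation (middle), 12 of the late sterol steps, 2 electron donors, 2 transcription factors and 5 genes of sterol esters.

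Total RNA of budding yeast (Saccharomyces cerevisiae) was measured on 6 Affymetrix expression arrays, 3 per group. The first group was an SSE1 deletion strain that carried yEVenus, a yellow fluorescent protein foreign to yeast, on a multi-copy plasmid, and the second was the same deletion strain with an empty plasmid. Both groups lack SSE1, which encodes an Hsp110 partner of cytosolic Hsp70, so no value here describes cells with that gene. Every replicate grew from its own colony to the exponential phase in medium without leucine. The comparison asks which transcripts differ when a gratuitous protein is overproduced from the plasmid. The labels do not name the parent strain or the promoter of yEVenus, and the protein itself was not measured.

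Ergosterol is the main sterol of yeast membranes and takes the place that cholesterol has in animals. Its synthesis starts in the mevalonate part, which turns acetyl-CoA into farnesyl diphosphate. That intermediate is shared with the synthesis of dolichol, haem a, ubiquinone and lipid anchors of proteins. Squalene synthase commits it to sterols, and after epoxidation and cyclisation the late enzymes remodel lanosterol to ergosterol in the endoplasmic reticulum. Several of these steps use oxygen and haem or iron. Surplus sterol is esterified and kept in lipid droplets, and Upc2 and Ecm22 are related transcription factors that raise many of the pathway's genes when sterol is low.

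The sterol genes did not move as a block. Of the 33, 9 rose with the yEVenus plasmid, 11 fell and 13 did not pass the threshold (limma across all genes, Benjamini-Hochberg adjusted p under 0.05). Over all genes tested, 29.3% rose and 41.0% fell, 70.4% in all, so a call by itself was common on these arrays. The median log2 difference was -0.11 over the sterol genes and -0.075 over all genes, and the median absolute log2 difference was 0.22 and 0.30. None of the 33 changed 2-fold or more. The calls lay unevenly along the pathway: the early part had 2 rises and 5 falls among 9 genes, the middle part 0 rises and 2 falls among 3, and the late steps 4 rises and 0 falls among 12. Within these 24 genes ERG20, ERG9, ERG13, ERG7 and MVD1 had the largest falls, and ERG28, ERG24 and ERG12 the largest rises, in the values as deposited.

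Across the 5449 genes the Pearson correlation was 0.996 to 0.998 for pairs of arrays within a group and 0.966 to 0.978 for pairs between groups. SSE1 had log2 levels of 3.09, 3.18 and 3.23 with yEVenus, against 3.17, 3.24 and 3.02 with the empty plasmid, which lie at the low end of the table in both groups as the labels require. Differences followed coding length, with a Spearman rho of -0.46 across all genes and of -0.23 across the 33 sterol genes, whose lengths run from 363 to 3165 nt. Genes are not independent replicates, so these are descriptions. Control probe sets at the 3' and 5' ends of 7 expressed yeast genes had a mean 3' minus 5' log2 gap of 2.48 ± 0.067 with yEVenus and 1.83 ± 0.029 with the empty plasmid (SD of array means, n = 3 each), larger on every yEVenus array for 7 of 7. An eighth such gene, URA3, was at a background level and was left out. Every gene was therefore also fitted with a smooth trend on coding length removed from every array. The plot of differences shows both values for each of the 33 genes, and the text gives the second for part of the genes. The part of length or RNA quality in a difference was not otherwise tested. With that trend removed 31.3% of all genes rose and 33.5% fell, 64.8% in all. The removal gave the deleted SSE1 a log2 difference of 0.20 in place of 0.03, which then passed (limma, adjusted p = 0.0306), so a rise that appears only after removal in a long or dim gene carries that limit. None of the 33 genes lies on chromosomes I or II, whose genes were lower with yEVenus as a whole (median log2 differences of -0.44 and -0.32).

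**Figure D1:**
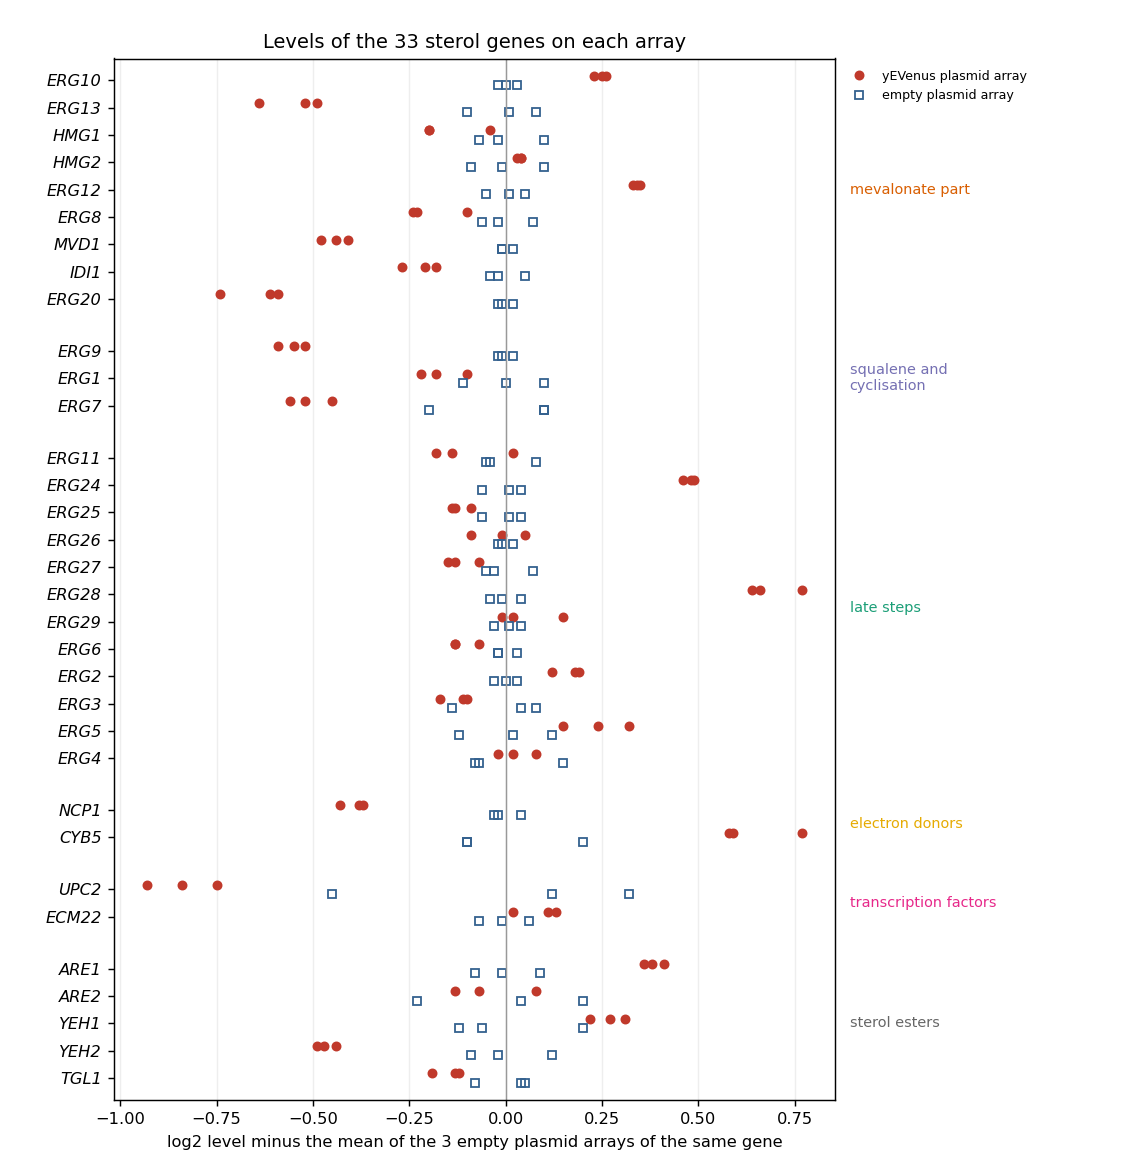
Log2 level of each of the 33 sterol genes on each array, minus the mean of the 3 empty plasmid arrays of the same gene (horizontal axis), with genes in pathway order from top to bottom. Filled circles are yEVenus plasmid arrays and open squares empty plasmid arrays; the groups are apart for 23 genes and overlap for 10.

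The groups did not overlap for 9 genes that were higher with yEVenus and 14 that were lower, where 31.5% and 43.4% of all genes did so (74.9% in either direction). In the plot of levels by array the spread within a group was widest for UPC2 with the empty plasmid (SD 0.398) and narrowest for HMG2 with yEVenus (SD 0.004).

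In the mevalonate part ERG10 and ERG12 rose, and ERG13, ERG8, MVD1, IDI1 and ERG20 fell. ERG10, the acetoacetyl-CoA thiolase that opens the pathway, rose. Its log2 levels were 12.59, 12.58 and 12.56 with yEVenus, against 12.36, 12.31 and 12.33 with the empty plasmid, 0.24 ± 0.0458 higher on the log2 scale (SE; limma, adjusted p = 0.00194). ERG13, the HMG-CoA synthase that acts next, fell: it was at 11.25, 11.13 and 11.28 with yEVenus and at 11.67, 11.85 and 11.78 with the empty plasmid, a ratio of 0.684 (adjusted p = 1.91e-04). The arrays of the groups were apart for both genes. With the length trend removed the log2 differences were 0.38 for ERG10 and -0.40 for ERG13, and both passed.

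HMG1 and HMG2 encode the isoenzymes of HMG-CoA reductase, the rate-limiting enzyme of the pathway and, in humans, the target of statins. Neither passed the threshold. HMG1 averaged 9.43 ± 0.093 with yEVenus and 9.57 ± 0.09 with the empty plasmid (SD, n = 3 each), a log2 difference of -0.15 (limma, adjusted p = 0.0906). HMG2 averaged 9.61 ± 0.004 with yEVenus and 9.57 ± 0.091 with the empty plasmid, a log2 difference of 0.04 (limma, adjusted p = 0.56). They are the longest of the 33 genes, and removal of the length trend put HMG1 at 0.12 (adjusted p = 0.0819) and HMG2 at 0.31 (adjusted p = 0.00165). When the trend was fitted without the dimmest 25% of genes (the brighter genes), HMG1 was at 0.14 and passed (adjusted p = 0.0455). Without yEVenus replicate 3, HMG1 passed in the other direction, at -0.20 (adjusted p = 0.0417). The direction of HMG1 thus depended on the setting.

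ERG12, which encodes mevalonate kinase, acts after the reductase. It was at 10.51, 10.53 and 10.52 with yEVenus, against 10.23, 10.13 and 10.19 with the empty plasmid, which is 1.26-fold (limma, adjusted p = 5.20e-04). ERG8, the phosphomevalonate kinase of the following step, fell by 0.19 on the log2 scale, with 10.61, 10.47 and 10.48 with yEVenus and 10.78, 10.65 and 10.69 with the empty plasmid (adjusted p = 0.0242). The groups of ERG8 were apart by a small margin only. It did not pass once the length trend was removed (log2 difference -0.019, adjusted p = 0.779), nor without empty plasmid replicate 1, yEVenus replicate 2 or yEVenus replicate 3 (adjusted p = 0.067, 0.0859 and 0.0791).

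The last enzymes before farnesyl diphosphate all fell. MVD1, mevalonate diphosphate decarboxylase, was at 11.02, 10.95 and 10.99 with yEVenus, against 11.42, 11.45 and 11.42 with the empty plasmid, a ratio of 0.737 (limma, adjusted p = 1.07e-04). IDI1, the isomerase that interconverts the isoprene units, was at 10.53, 10.62 and 10.59 with yEVenus and at 10.85, 10.78 and 10.76 with the empty plasmid, a log2 difference of -0.22 (adjusted p = 0.00545). ERG20, farnesyl diphosphate synthase, had the largest fall of any enzyme of the list. Its log2 levels were 11.40, 11.25 and 11.38 with yEVenus, against 12.01, 11.98 and 11.97 with the empty plasmid, which is -0.65 ± 0.0563 on the log2 scale (SE; limma, adjusted p = 4.24e-05) and lies at percentile 6.4 of the differences of all genes. Their groups did not overlap. With the length trend removed MVD1 was at -0.30, IDI1 at -0.24 and ERG20 at -0.58, all past the threshold.

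Squalene synthesis and cyclisation were lower too. ERG9, squalene synthase, which draws farnesyl diphosphate into sterols, was at 10.82, 10.75 and 10.79 with yEVenus, against 11.36, 11.32 and 11.33 with the empty plasmid, a ratio of 0.684 (limma, adjusted p = 4.26e-05). ERG7, lanosterol synthase, was at 9.74, 9.67 and 9.63 with yEVenus and at 10.29, 9.99 and 10.29 with the empty plasmid, a ratio of 0.701 (adjusted p = 0.00123). Every yEVenus array lay below every empty plasmid array in both genes, and both passed with the length trend removed (-0.38 and -0.32). ERG1, squalene epoxidase, lies between them in the pathway and did not pass: it averaged 11.70 ± 0.061 with yEVenus and 11.87 ± 0.106 with the empty plasmid (SD, n = 3 each; log2 difference -0.16, adjusted p = 0.0614). It passed as a fall without empty plasmid replicate 3 (-0.21, adjusted p = 0.0251), without the dimmest 25% of genes (adjusted p = 0.0447) and with limma's trend and robust options (adjusted p = 0.021), and was at -0.011 with the length trend removed.

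**Figure D2:**
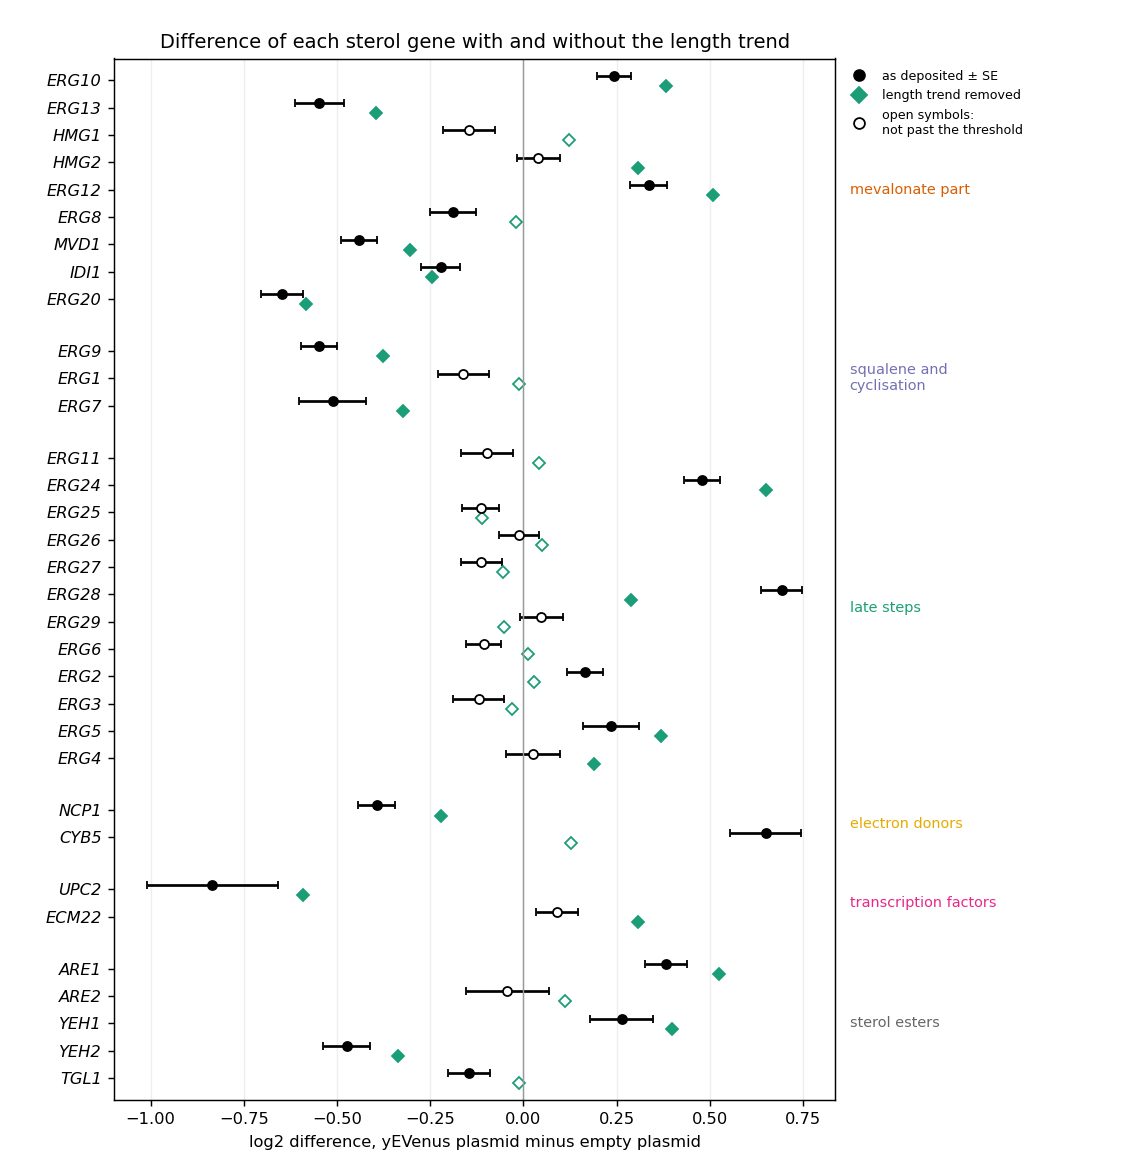
Log2 difference, yEVenus plasmid minus empty plasmid, of each sterol gene in pathway order: black circles show the values as deposited with the standard error of the limma fit, green diamonds the values with the length trend removed, and open symbols those not past the adjusted p threshold of 0.05. ERG20, ERG9 and UPC2 stand to the left and ERG24, ERG12 and ARE1 to the right in both fits, whereas CYB5 and ERG28 move towards 0 on removal of the trend.

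Most of the late sterol steps differed little between the groups. Of the 12 genes, 8 did not pass, and their log2 differences lay between -0.12 and 0.05. These include ERG11, the cytochrome P450 that demethylates lanosterol and the target of azole drugs, which averaged 11.95 ± 0.104 with yEVenus and 12.05 ± 0.074 with the empty plasmid (SD, n = 3 each; log2 difference -0.098, limma adjusted p = 0.235). The groups of ERG11 overlapped. The enzymes of the demethylation complex that follows were close to level as well: ERG25, the methyl oxidase, was at -0.12, ERG26, the decarboxylating dehydrogenase, at -0.012, and ERG27, the keto reductase, at -0.11 on the log2 scale. ERG6, the sterol methyltransferase, was at -0.11 and ERG3, a sterol desaturase, at -0.12. ERG25, ERG27 and ERG6 had groups that did not overlap although none passed, with adjusted p of 0.0698, 0.0971 and 0.0743; with limma's trend and robust options ERG25 and ERG6 passed as falls (adjusted p = 0.0141 and 0.0444), which gives the late steps 4 rises and 2 falls. ERG3 passed in 1 setting, without empty plasmid replicate 3 (-0.19, adjusted p = 0.0237). ERG4, the reductase that completes ergosterol, was at 0.03, and at 0.19 with the length trend removed (adjusted p = 0.0417). ERG29, a small membrane protein needed for sterol synthesis, was at 0.05, and passed as a rise after cyclic loess alone (0.14, adjusted p = 0.0492), which gives 5 late rises.

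ERG28 and ERG24 had the largest rises of the late part in the values as deposited. ERG24 encodes the sterol reductase that acts on the product of Erg11. It was at 10.70, 10.68 and 10.71 with yEVenus, against 10.23, 10.26 and 10.16 with the empty plasmid, which is 1.39-fold (0.48 ± 0.0489 on the log2 scale, SE; limma, adjusted p = 8.91e-05). Removal of the length trend raised its log2 difference to 0.65. ERG28 encodes the scaffold that holds the demethylation enzymes together at the endoplasmic reticulum membrane. It was at 10.12, 10.23 and 10.10 with yEVenus and at 9.50, 9.45 and 9.42 with the empty plasmid, which is 1.62-fold (adjusted p = 3.07e-05). ERG28 is short (447 nt), and with the length trend removed its log2 difference was 0.29 in place of 0.69, still past the threshold (adjusted p = 7.53e-04).

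Smaller rises were measured in ERG5 and ERG2. ERG5, the second cytochrome P450 of the pathway and a sterol desaturase, was at 10.13, 10.04 and 10.21 with yEVenus, against 10.01, 9.91 and 9.77 with the empty plasmid (log2 difference 0.23, limma adjusted p = 0.0229). The margin between its groups was narrow, and the call ended without empty plasmid replicate 3, yEVenus replicate 1 or yEVenus replicate 3 (adjusted p = 0.0704, 0.0626 and 0.0791). ERG2, the sterol isomerase, averaged 12.30 ± 0.038 with yEVenus and 12.14 ± 0.031 with the empty plasmid (SD, n = 3 each; log2 difference 0.17, adjusted p = 0.0161). It did not pass once the length trend was removed (0.029, adjusted p = 0.604), nor without empty plasmid replicate 3, yEVenus replicate 1 or yEVenus replicate 3 (adjusted p = 0.0503, 0.0519 and 0.0533). Because of ERG5 and ERG2, the late steps had 2 rises in place of 4 when any of those 3 arrays was left out, and with empty plasmid replicate 3 left out ERG3 was their 1 fall.

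The electron donors of the late steps went opposite ways. NCP1, the reductase that passes electrons from NADPH to both cytochromes P450, fell: its log2 levels were 10.90, 10.95 and 10.96 with yEVenus, against 11.30, 11.37 and 11.31 with the empty plasmid, a ratio of 0.761 (limma, adjusted p = 2.17e-04). CYB5, cytochrome b5, an alternative donor for the sterol oxidases and desaturases, rose to 10.32, 10.51 and 10.33 with yEVenus, against 9.94, 9.64 and 9.64 with the empty plasmid, which is 1.57-fold (adjusted p = 5.26e-04). The groups were apart for both. CYB5 is the shortest gene of the list (363 nt), and it did not pass once the length trend was taken out (0.13, adjusted p = 0.164), whereas NCP1 stayed past the threshold at -0.22 (adjusted p = 0.00296).

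UPC2, the sterol-sensing transcription factor, had the largest difference of the 33 genes in the values as deposited (with the length trend removed, that of ERG24 was larger). It was at 6.46, 6.64 and 6.55 with yEVenus, against 6.94, 7.51 and 7.71 with the empty plasmid, a ratio of 0.561 (-0.83 ± 0.175 on the log2 scale, SE; limma, adjusted p = 0.00326). The groups were apart, and the empty plasmid arrays were spread over a wide range with replicate 1 lowest. The fall held without each array in turn, with log2 differences from -1.06 to -0.67 and a highest adjusted p of 0.0172, and with the length trend removed (-0.59, adjusted p = 0.0148). The probe set of UPC2 was dim, at percentile 12.7 of mean level. ECM22, its relative, did not pass, with means of 8.22 ± 0.054 with yEVenus and 8.14 ± 0.066 with the empty plasmid (SD, n = 3 each; log2 difference 0.09, adjusted p = 0.19). Its difference passed after median centring (0.16, adjusted p = 0.0375), cyclic loess (0.17, adjusted p = 0.0281) and removal of the length trend (0.31, adjusted p = 0.00149).

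Among the genes of sterol esters, ARE1 and YEH1 rose and YEH2 and TGL1 fell. ARE1 and ARE2 encode the acyl-CoA:sterol acyltransferases. ARE1 rose to 9.15, 9.18 and 9.13 with yEVenus, against 8.86, 8.76 and 8.69 with the empty plasmid, which is 1.30-fold (limma, adjusted p = 5.84e-04), while ARE2, which makes most sterol esters in aerobic cells, was at 8.10, 7.95 and 7.89 with yEVenus and at 8.22, 7.79 and 8.06 with the empty plasmid (log2 difference -0.043, adjusted p = 0.744). The groups were apart for ARE1 and overlapped for ARE2. Of the sterol ester hydrolases, YEH2, the enzyme of the plasma membrane, fell: 9.15, 9.17 and 9.20 with yEVenus, against 9.76, 9.55 and 9.62 with the empty plasmid, a ratio of 0.72 (adjusted p = 3.26e-04). YEH1, of lipid droplets, rose 1.2-fold, at 8.50, 8.55 and 8.59 with yEVenus and 8.22, 8.48 and 8.16 with the empty plasmid (adjusted p = 0.0242). The margin of YEH1 was narrow, since empty plasmid replicate 2 came close to the yEVenus arrays. TGL1, also of lipid droplets, fell by 0.15 on the log2 scale (adjusted p = 0.0453). The calls of ARE1, YEH1 and YEH2 held with the length trend removed (0.52, 0.40 and -0.34), and that of TGL1 did not (-0.011, adjusted p = 0.864). YEH1 lost its call without empty plasmid replicate 1 or 3 or yEVenus replicate 2 or 3 (adjusted p of 0.0613, 0.0778, 0.0651 and 0.071), and TGL1 in 5 of 6 such fits (0.072 to 0.141), holding only without empty plasmid replicate 2.

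Unequal change within 4 such pairs was tested on the difference between the probe sets on each array, which leaves out anything shared by both genes of a pair on that array. The pairs come from genes listed with results of the same arrays known, so the p-values below are descriptions. Levels of different probe sets cannot be compared, so only the change of this difference between groups is read. UPC2 minus ECM22 changed by -0.92, with values of -1.70, -1.62 and -1.70 with yEVenus and -1.19, -0.56 and -0.50 with the empty plasmid. YEH1 minus YEH2 changed by 0.74, and ARE1 minus ARE2 by 0.43. Each of these 3 pairs had groups that did not overlap, which gives the smallest p that 3 arrays against 3 allow (exact two-sided permutation test, p = 0.1, or 0.133 adjusted over the 4 pairs), so this test cannot pass 0.05 here. Of all single genes 74.9% had groups that did not overlap. The share over other gene pairs was not worked out, so 3 of 4 is not read as a result about these pairs. HMG1 minus HMG2 changed by -0.19 with overlapping groups (exact permutation p = 0.2, adjusted p = 0.2). The members of each pair have similar coding lengths, and with the length trend removed the changes were -0.90, 0.74, 0.41 and -0.19 in the same order.

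**Figure D3:**
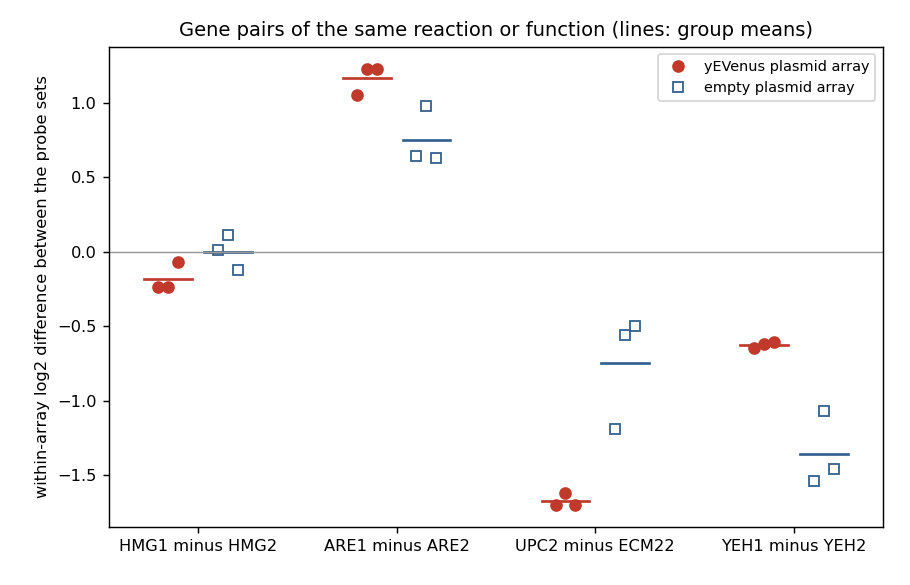
Within-array log2 difference between the probe sets of 4 gene pairs (vertical axis), with 1 point per array, filled circles for the yEVenus plasmid, open squares for the empty plasmid and lines for group means. The yEVenus arrays lie below the empty plasmid arrays for UPC2 minus ECM22 and above them for YEH1 minus YEH2 and ARE1 minus ARE2, and overlap them for HMG1 minus HMG2.

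Set side by side, the averages of the early and middle genes were lower with yEVenus and that of the late genes was slightly higher. The median log2 difference was -0.19 for the early, -0.51 for the middle and 0.007 for the late genes. Averaged over its 9 genes, the mevalonate part lay 0.16, 0.21 and 0.16 below the empty plasmid mean on the yEVenus arrays. The 12 late genes lay 0.10, 0.066 and 0.099 above it, and the 3 middle genes 0.39, 0.43 and 0.40 below it, all on the log2 scale. Among the late genes ERG28 and ERG24 had the largest differences, and 8 of the 12 did not pass. The early minus late difference was -0.27, -0.27 and -0.26 with yEVenus, against -0.052, -0.002 and 0.054 with the empty plasmid. No test is given for these averages, because the genes were listed with results of the same arrays known.

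Part of that gap moved with length. The late genes are shorter (median coding length 1074 nt) than the early (1332 nt) and middle ones (1491 nt). With the length trend removed the early minus late difference was -0.13, -0.14 and -0.15 with yEVenus, against -0.037, -0.009 and 0.045 with the empty plasmid, and the early average itself was within 0.039 of the empty plasmid mean on each array. In that fit the early part had 3 rises and 4 falls, the middle part 0 and 2, and the late steps 4 and 0, where 31.3% of all genes rose and 33.5% fell. The risen early genes were ERG10, ERG12 and HMG2, and the fallen ones ERG13, MVD1, IDI1 and ERG20. HMG2, a long gene, was uncalled as deposited, so its rise carries the limit set by SSE1. The early average also holds the shifts of the longest genes, HMG1 from -0.15 to 0.12 and HMG2 from 0.04 to 0.31. When the trend of brighter genes was removed HMG1 rose as well, which gave the early part 4 rises and 4 falls. Its average was then at -0.003 with overlapping groups. The middle part kept 0 and 2 and the late steps 4 and 0, where 32.3% of all genes rose and 32.3% fell.

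**Figure D4:**
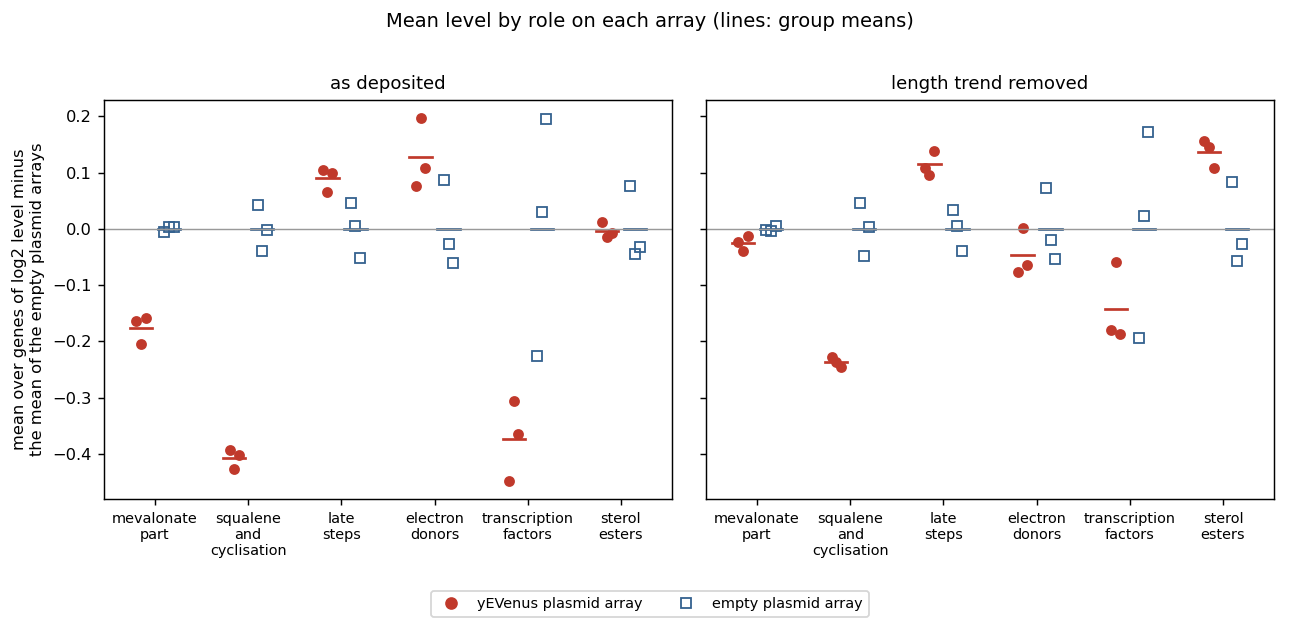
Mean over the genes of each role of the log2 level minus the empty plasmid mean (vertical axis) on each array, with the values as deposited on the left and the length trend removed on the right. Filled circles are yEVenus plasmid arrays, open squares empty plasmid arrays and lines group means; the squalene and cyclisation genes are about 0.41 lower with yEVenus on the left and 0.24 lower on the right.

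**Figure D5:**
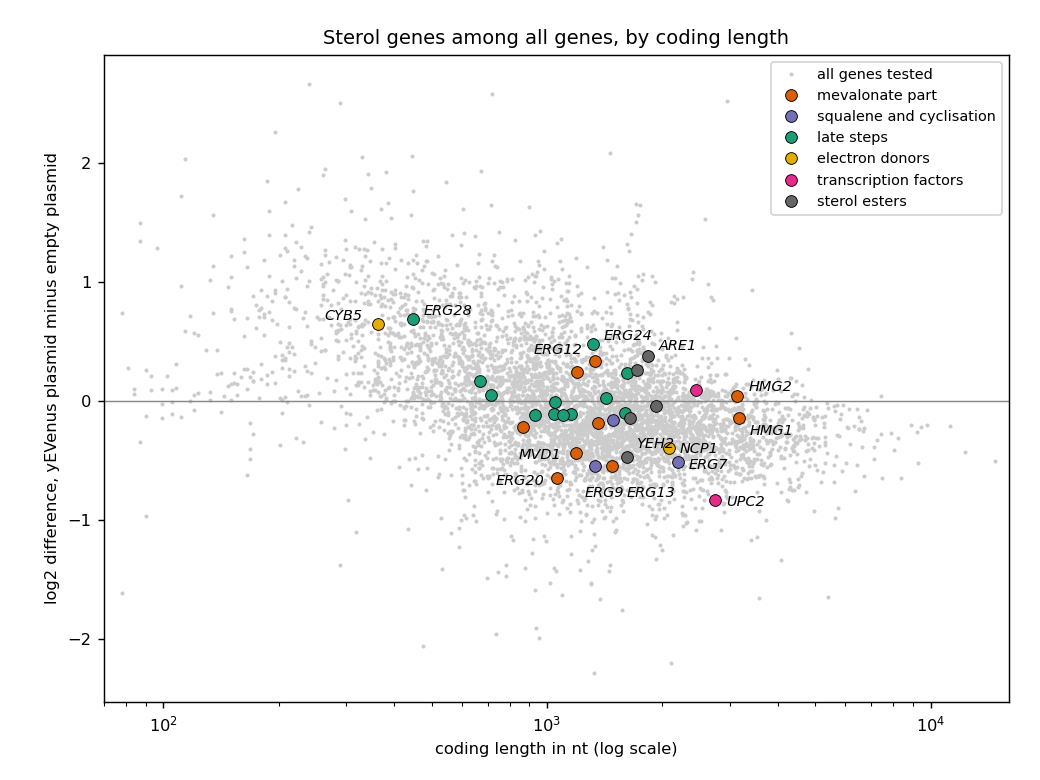
Log2 difference, yEVenus plasmid minus empty plasmid, against coding length (log scale) for all 5449 genes (grey) and the 33 sterol genes (coloured by role). Short genes tend to lie above 0 and long ones below it; CYB5 and ERG28 lie among the short genes, and ERG20, ERG24 and ERG12 lie near the middle of the length range but apart from 0.

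Of the 20 genes called, 16 kept their call and direction under both forms of length correction (with the trend of brighter genes removed, 32.3% of all genes rose and 32.3% fell, 64.6% in all), 7 of them rises and 9 falls, and 14 did so under every setting they entered other than a minimum change of 1.2-fold (UPC2 was not among the genes tested without the dimmest 25%). These 14 are the rises of ERG10, ERG12, ERG24, ERG28 and ARE1 and the falls of ERG13, MVD1, IDI1, ERG20, ERG9, ERG7, NCP1, UPC2 and YEH2. How many of all called genes keep their call over the same settings was not worked out. The 16 and the 14 therefore do not set the sterol genes apart from other genes. Tested against a minimum change of 1.2-fold, 3 genes rose (ERG24, ERG28 and CYB5) and 8 fell (ERG13, MVD1, ERG20, ERG9, ERG7, NCP1, UPC2 and YEH2), where 15.5% of all genes rose and 16.6% fell (32.2% in all). RNA came from whole cultures, so a smaller share of cells with a transcript and less of it in every cell cannot be told apart.

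Genes next to the pathway were scored from lists of textbook members outside the 33, chosen with earlier results of these data known. Their counts stand beside the same 29.3% and 41.0%, or beside 31.3% and 33.5% with the length trend removed. Of 15 other regulators of sterol genes and of HMG-CoA reductase turnover, 5 rose and 7 fell (median log2 difference -0.11), and with the length trend removed 6 rose and 4 fell. DAP1, a haem-binding partner of Erg11, rose: it was at 10.21, 10.39 and 10.31 with yEVenus, against 9.18, 9.11 and 9.13 with the empty plasmid, a log2 difference of 1.16 (limma, adjusted p = 5.89e-06), larger than that of any of the 33 genes. It is short (459 nt), and removal of the length trend left 0.78. HAP1, the haem-responsive activator of respiratory and some sterol genes, fell, with 9.17, 9.18 and 9.26 with yEVenus and 10.00, 9.88 and 9.88 with the empty plasmid (log2 difference -0.72, adjusted p = 2.79e-05). With 4509 nt it is long, and its difference was -0.41 with the trend removed (adjusted p = 0.00113).

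Of 17 measured genes of sterol uptake and transport, 5 rose and 5 fell (median -0.049). With the length trend removed 9 rose and 3 fell. Of these rises, LAM1, AUS1, NCR1, PRY3 and LAM5, named after their values were seen, were uncalled as deposited. They are long (2025 to 4185 nt) and were at 0.13 to 0.30 after removal. The limit set by the deleted SSE1, which removal put at 0.20, applies to them. SAY1, a sterol deacetylase, rose to 8.61, 8.55 and 8.56 with yEVenus, against 8.05, 7.83 and 7.95 with the empty plasmid (log2 difference 0.64, limma adjusted p = 8.98e-05), and PRY2, a secreted sterol-binding protein, rose by 0.56 (adjusted p = 3.56e-04). At 0.80 for SAY1 and 0.60 for PRY2 with the length trend removed, both stayed past the threshold. Both were higher on every yEVenus array than on any empty plasmid array. The falls of this list include SUT2, the largest (-0.37, limma adjusted p = 0.00106), PRY1 (-0.33, adjusted p = 0.00303) and ATF2 (-0.28, adjusted p = 0.00101). SUT2, PRY1 and ATF2 were named after their values were seen, and were at -0.41, -0.34 and -0.14 with the length trend removed.

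Of 12 other users of isoprenoid diphosphates, 5 rose and 7 fell (median -0.15), and with the length trend removed 5 rose and 5 fell. CDC43, a subunit of the enzyme that attaches geranylgeranyl lipids to proteins, was at 8.49, 8.40 and 8.46 with yEVenus and at 8.89, 9.01 and 8.99 with the empty plasmid (log2 difference -0.52, limma adjusted p = 1.06e-04). MOD5, which modifies transfer RNAs with an isoprenoid, was at -0.49 (adjusted p = 1.59e-04). Among the falls of this list COQ1 (-0.47) and RER2 (-0.41) lie on chromosome II and were named after their values were seen. The 5 rises, also named after their values were seen, were SRT1, BTS1, RAM2, BET2 and COX10, at 0.22 to 0.45.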

How the data were processed

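Per the submitters' processing notes, RMA and R 3.2.0 were used. Each deposited number is a log2 level of 1 probe set on 1 array. RMA makes array distributions alike, so each difference is relative to the bulk of transcripts. Filters and batches are not stated in the labels. Of 5900 probe sets, 5498 name 1 gene, 0 several and 402 none (137 of them controls). Symbols were updated by gene identifier through a RefSeq table (R64), which also gave chromosome and length; 97% of lengths are multiples of 3, so they are called coding lengths. The brightest probe set was used for 47 genes with several. Limma 3.58.1 in R 4.3.3 (lmFit, eBayes) compared 3 yEVenus plasmid with 3 empty plasmid arrays over 5449 genes; adjusted p-values are Benjamini-Hochberg. The number of arrays limits precision. The length trend was a loess (span 0.5) of each gene's deviation from its mean on log2 coding length. The code of the fits was checked on simulated arrays with independent noise and far fewer changed genes than here, which does not test these arrays. Members, roles and lists were chosen with earlier results of these data known. Named genes are all 33, SSE1 and, of each neighbouring list, the 2 smallest p, apart from those marked as named after their values were seen. A planned motif search in promoters was not run.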

Additional observations from a re-analysis of the deposited data

How the results depend on the processing

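Among the 33 genes, 9 rose and 11 fell in the fit as reported; over the other settings the count of rises was 6 to 11, except for 3 against a minimum change of 1.2-fold, and the count of falls was 8 to 13. Leaving out single arrays gave 6 to 9 rises and 9 to 12 falls. The counts over all genes tested moved too, from 1599 rises and 2236 falls in the fit as reported. Over the other settings they were 1215 to 1846 rises, except for 846 against the minimum change, and 907 to 2276 falls. Without single arrays they were 1420 to 1614 rises and 1939 to 2195 falls. The 33 genes, called or not, gave 625 values under other settings. Of these, 562 had the same outcome, which was the same call or no call in both fits. Another 44 lost a call, 16 gained one and 3 turned in direction with a call on either side. Those 3 were HMG1 at 0.14, ERG8 at 0.014 and TGL1 at 0.035, with the length trend fitted on brighter genes. Among the 562, 23 changed sign without a call in either fit. The median log2 difference of the early genes was -0.19 as reported, -0.12 under cyclic loess and under median centring, -0.019 with the length trend removed, 0.014 with the trend of brighter genes removed, and -0.22 to -0.16 without single arrays. For the middle genes it was -0.51 as reported, and -0.43, -0.44, -0.32, -0.29 and -0.56 to -0.46 in the same order. For the late genes it was 0.007, and 0.061, 0.075 and 0.047 under cyclic loess, median centring and the trend of brighter genes; without single arrays it ran from -0.024 to 0.039. The causes of these moves were not tested. Without the dimmest 25% of genes, which holds UPC2 and ARE2, 3 users of isoprenoid diphosphates rose, fewer being tested. With the length trend removed, 9 genes of sterol uptake rose and 3 fell, 4 other regulators fell, 1 haem gene fell, and 5 fatty acid genes rose and 1 fell. In that fit 31.3% of all genes rose and 33.5% fell. Some of the listed rises appear in that fit alone, and in long or dim genes they carry the limit set by SSE1. With the replicate number as a block, 9 sterol genes rose and 11 fell; same-numbered arrays correlated at 0.193, -0.129 and 0.196 in their deviations, 1 of 3 yEVenus arrays correlated best with its own number, and the numbers were not taken as pairs. The groups of 3 arrays limit how small a change can pass.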

Other observations

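Haem and fatty acid genes, scored in the same way as the other neighbouring lists, had calls in both directions. Of 8 haem synthesis genes, 3 rose and 2 fell (median log2 difference -0.015), where 29.3% of all genes rose and 41.0% fell. After removal of the length trend 4 rose and 1 fell, where 31.3% of all genes rose and 33.5% fell. HEM12, uroporphyrinogen decarboxylase, rose to 9.98, 10.07 and 9.95 with yEVenus, against 9.58, 9.26 and 9.47 with the empty plasmid (log2 difference 0.57, limma adjusted p = 5.93e-04), and HEM1, which makes the first intermediate, fell by 0.32 (adjusted p = 0.00106). Both calls held with the length trend removed, at 0.65 and -0.18.

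Of 12 genes of fatty acid synthesis, unsaturation and triacylglycerol stores, 3 rose and 5 fell (median -0.085). After removal of the length trend 5 rose and 1 fell. The shares of all genes are the same as for the haem list. ELO1, a fatty acid elongase, rose to 11.87, 11.94 and 11.95 with yEVenus, against 11.30, 11.22 and 11.10 with the empty plasmid (log2 difference 0.72, limma adjusted p = 4.74e-05). Its difference was 0.72 with the length trend removed as well. ACC1, acetyl-CoA carboxylase, fell to 12.41, 12.46 and 12.68 with yEVenus, against 13.08, 13.15 and 13.22 with the empty plasmid. It has the longest coding length of that list (6702 nt), and its log2 difference was -0.63 as deposited and -0.30 with the length trend removed. The acyl-CoA used by Are1 and Are2 comes from this pathway.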
